A study of Neurospora crassa with 6 samples.

Results

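The genes described here are the protein kinases of the filamentous fungus Neurospora crassa outside its MAP kinase cascades. They were chosen by the product text of the deposited tables, with 9 MAP cascade genes left out by locus, and no measured value was used. The rule found 79 of 9691 genes. Of these, 69 carry the text or the known identity of a catalytic kinase. The other 10 have a text that names a kinase but are not, or not surely, a catalytic kinase. Examples are the regulatory subunits of casein kinase II and of the cAMP-dependent kinase. The text of 3 of those 10, namely NCU00455, NCU01389 and NCU04597, still refers to MAP kinase signalling, so the label does not hold for every gene. One gene, stk-21 (NCU03242), stayed below a mean of 1 FPKM over the 6 libraries, with values from 0.0824 to 0.609, and the counts that follow concern the remaining 78.

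All libraries come from the wild type. Asexual spores (conidia) germinated for 6 h in shaken cultures under constant light, in 1 of 3 media, before 1 h of exposure to 20 µM staurosporine or to its solvent DMSO. The media were minimal medium labelled 0 Ca2+, standard minimal medium and minimal medium with 20 mM CaCl2, which gives 6 groups with 1 library of poly(A) RNA each. The labels do not say how many cultures were pooled for a library. No value within a medium therefore has a replicate error, and the read depth is unknown. Levels are FPKM, the authors' fragment counts scaled to transcript length and to the mapped reads of the library. Differences are log2 ratios of FPKM + 1, with staurosporine over DMSO or the changed medium over standard medium, which understates the change of low genes. A gene was counted as higher or lower when its log2 ratio reached 1 or -1, that is 2 times.

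Protein kinases transfer phosphate from ATP to proteins and act as switches for growth, the cell cycle, stress and nutrient signalling. Staurosporine occupies the ATP pocket that most of these enzymes share, so it blocks many of them at once without needing to change their transcripts. The values below concern transcript levels of the kinase genes and not the activity of the enzymes.

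The deposited FPKM summed to between 500315 and 696047 in the 3 staurosporine libraries and between 940590 and 1001098 in the 3 DMSO libraries. The 79 kinase genes together held 0.274%, 0.506% and 0.319% of that sum with staurosporine in 0 Ca2+, standard and 20 mM CaCl2 medium, against 0.246%, 0.241% and 0.226% with DMSO. Their summed FPKM was 1908, 2529.8 and 2125 with staurosporine, against 2348, 2266 and 2262 with DMSO. The larger share in standard medium thus went with a smaller library sum more than with a larger kinase sum. The 6 most abundant kinase genes were cka, ck-1a, stk-39, ckb-2, ck-1b and prk-1. In a bulk culture, fewer cells that hold a transcript and less of it per cell cannot be told apart.

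In the FPKM as deposited, transcripts of most kinase genes stayed within 2 times of their reference in every comparison. This held for 50 of the 78 genes over all 5 comparisons, against 46.2% of all genes. With staurosporine, 28 of the 78 passed 2 times in at least 1 medium, against 52.4% of all genes. The genes rbg-40 (NCU07722) and NCU08772 passed it in the same direction in at least 2 media, both lower, which makes 2 of 78, against 17.3% of all genes. With each library's FPKM rescaled to the same sum, neither did so. In 0 Ca2+ and standard medium rbg-40 was then at -1.66 and -0.70, and NCU08772 at -1.03 and -0.19. Other named genes then passed 2 times upward in 2 media. These were stk-39, un-1, stk-26 and camk-3 in 0 Ca2+ and standard medium, and prk-8 and stk-12 in standard and 20 mM CaCl2 medium. How many of all genes did so on that scale was not counted. As deposited, the direction differed by medium, with more genes lower in 0 Ca2+ medium, more higher in standard medium and almost none past 2 times in 20 mM CaCl2 medium. With the same rescaling, the kinase medians in these media were 0.13, 1.23 and 0.55, all above 0, against 0.34, 0.93 and 0.39 for all genes. In standard medium 46 of 78 kinase genes then passed 2 times upward, against 46.8% of all genes, so most no longer stayed within 2 times.

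With staurosporine in 0 Ca2+ medium, 1 kinase gene passed 2 times upward and 16 downward, against 18.7% higher and 20.9% lower among all 7531 genes that passed the level filter. The median log2 ratio was -0.30 over the kinase genes and -0.09 over all genes, and 26 of the 78 had a ratio above 0, against 46.7% of all genes. The share lower was thus near that of all genes, while few kinase genes were among the higher ones. In standard medium 10 passed upward and 3 downward, against 13.4% and 14.9% of 7167 genes. The median was 0.35 over the kinase genes and 0.11 over all genes, and 54 of 78 had a ratio above 0, against 54.8% of all genes. In 20 mM CaCl2 medium 1 kinase gene passed upward and 0 downward, against 2.62% and 6.16% of 7204 genes. The medians were 0.00 and -0.14, and 39 of 78 kinase genes had a ratio above 0, against 39.6% of all genes. These counts depend on scaling. With each library's FPKM rescaled to the same sum, the median log2 ratio of all genes rose in each medium. It went from -0.09 to 0.34 in 0 Ca2+, from 0.11 to 0.93 in standard and from -0.14 to 0.39 in 20 mM CaCl2 medium. Of the kinase genes, 9 then passed upward and 8 downward in 0 Ca2+ medium, against 28.7% and 13.5% of all genes. In standard medium these were 46 and 0, against 46.8% and 4.91%, and in 20 mM CaCl2 medium 11 and 0, against 12.8% and 1.69%. The same rescaling turned the sign of 36 of 102 staurosporine ratios of the 34 named kinase genes, none of them past 2 times, so the ratios below hold for the FPKM as deposited.

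**Figure D1:**
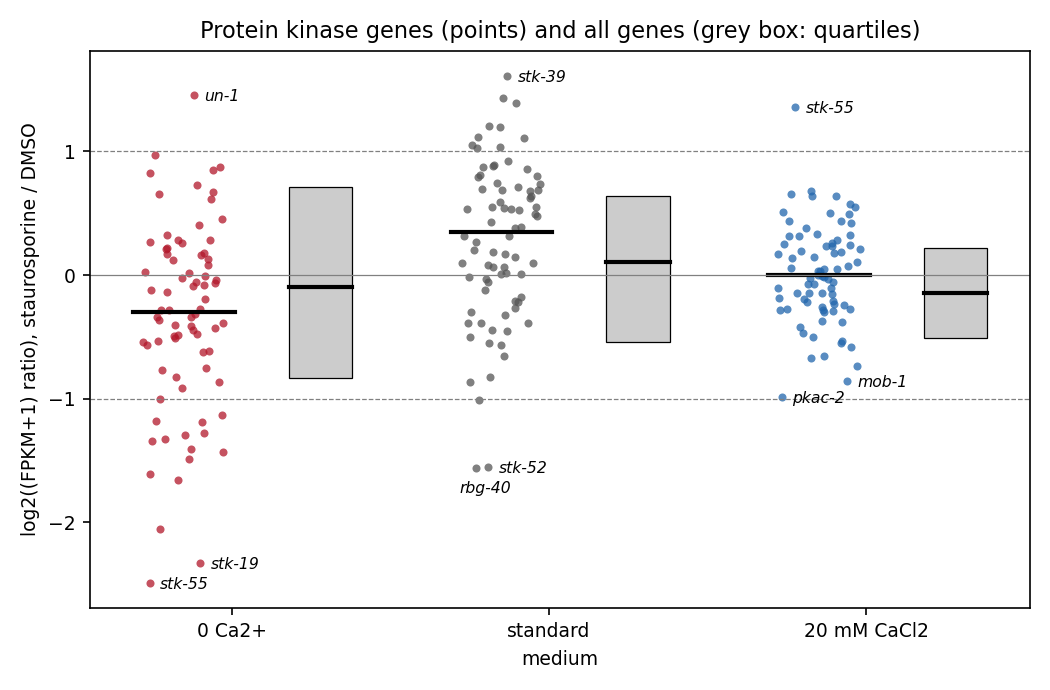
Log2((FPKM+1) ratio) of staurosporine over DMSO for the 78 kinase genes (points, with their median as a black line) beside the quartiles and median of all genes that passed the level filter (grey box), in each medium. Each point rests on 1 library per treatment, and the dashed lines mark a change of 2 times; the kinase median is -0.30 in 0 Ca2+, 0.35 in standard and 0.00 in 20 mM CaCl2 medium.

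The authors' deposited tables called 2 kinase genes higher and 17 lower as significant in 0 Ca2+ medium, against 15.5% and 20.4% of the genes they tested. In standard medium the authors' deposited table called 9 higher and 3 lower, against 12.8% and 13.9%. In 20 mM CaCl2 medium the authors' deposited table called only stk-55 higher and pkac-2 lower among the kinase genes, against 1.96% and 4.18%. These calls compare single libraries and carry no error between cultures.

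Taking the 3 media as repeats, no kinase gene passed the test of staurosporine against DMSO. In limma's moderated test on the 3 within-medium ratios, 0 of 78 kinase genes had an adjusted p below 0.05 with a mean change of at least 2 times, against 0.162% of the 7415 genes fitted. At an unadjusted p below 0.05 there were 2 kinase genes, NCU08772 and rbg-40, both lower, against 14.1% of all genes. NCU08772, annotated as part of a cyclin-dependent kinase complex, had a mean log2 ratio of -0.98 (moderated SE 0.36, limma adjusted p = 0.321) and was lower in 3 of 3 media. The mean log2 ratio of rbg-40 was -1.18 (moderated SE 0.48, limma adjusted p = 0.346), lower in 2 of 3 media. Without the 20 mM CaCl2 pair rbg-40 was the only kinase gene to pass, with a mean log2 ratio of -1.81 (moderated SE 0.46, limma adjusted p = 0.0435), among 536 genes that then passed. The test counts any dependence on the medium as error, so a gene whose ratios differ widely between media gets a wide SE.

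The calcium/calmodulin-dependent kinases, which calcium-loaded calmodulin switches on, had little in common. Those found by the rule were camk-2, camk-3 and camk-4. The transcript of camk-3 (NCU06177) had 8.24, 9.01 and 4.92 FPKM with staurosporine in 0 Ca2+, standard and 20 mM CaCl2 medium, against 4.12, 3.88 and 4.61 FPKM with DMSO. It was about equally high with the drug in the first 2 of these media, and its log2 ratios were 0.85, 1.04 and 0.08. For camk-4 (NCU09212) the drug libraries had 23.8, 19.6 and 23.0 FPKM, against 35.8, 28.2 and 20.0 FPKM with DMSO, with log2 ratios of -0.56, -0.50 and 0.19. Its DMSO level was highest in 0 Ca2+ medium and lowest in 20 mM CaCl2 medium. The gene camk-2 (NCU02283) lay within 0.5 of 0 in all 3 media, at 0.17, 0.27 and -0.47.

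The cAMP-dependent kinase, which responds to the glucose and growth signal cAMP, has catalytic subunits encoded by pkac-1 and pkac-2 and a regulatory subunit, encoded by mcb, that holds them inactive. The regulatory subunit gene mcb (NCU01166) had 20.1, 36.3 and 43.4 FPKM with staurosporine in 0 Ca2+, standard and 20 mM CaCl2 medium, against 52.5, 45.7 and 47.9 FPKM with DMSO. It was the lowest in the 0 Ca2+ drug library, with a log2 ratio of -1.34, and stood at -0.32 and -0.14 in the other media. The catalytic subunit gene pkac-2 (NCU00682) had 28.8, 17.4 and 14.0 FPKM with staurosporine, against 23.7, 26.2 and 28.6 FPKM with DMSO. As deposited, its order was the reverse of that of mcb, with log2 ratios of 0.27, -0.57 and -0.98. With equal FPKM sums the orders were no longer reversed, at 0.71, 0.31 and -0.43 for pkac-2 and -0.91, 0.57 and 0.43 for mcb. The other catalytic subunit gene, pkac-1 (NCU06240), stayed between 26.0 and 35.6 FPKM in all 6 libraries and its log2 ratios between -0.28 and -0.03.

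Of the cAMP-dependent and other AGC kinase genes, 9 passed the level filter. As deposited, only mcb among these 9 passed 2 times with the drug, while 52.4% of all genes did in at least 1 medium. The AGC kinase gene stk-10 (NCU03200) stood at -0.91 in 0 Ca2+ medium, where the authors' deposited table calls it lower. The gene pkc (NCU06544), for protein kinase C, which acts in cell wall integrity in fungi, had 35.2, 57.5 and 44.9 FPKM with staurosporine, against 36.7, 29.9 and 37.4 FPKM with DMSO. It was highest in the drug library of standard medium, with a log2 ratio of 0.92 there, and the authors' deposited table calls it higher in that medium. With equal FPKM sums that ratio of pkc was 1.82, past 2 times. The gene cot-1 (NCU07296), for the NDR kinase of hyphal tip growth, had 58.6, 114 and 61.9 FPKM with staurosporine, against 85.0, 98.4 and 93.1 FPKM with DMSO. Its log2 ratios were -0.53, 0.21 and -0.58. The gene stk-50 (NCU07280, annotated as gad8) was at 112 FPKM with staurosporine in standard medium, against 76.7 FPKM with DMSO, and lay between 60.1 and 78.4 FPKM in the other 4 libraries. Of the partners of NDR kinases, mob-2b (NCU07460) had 14.3, 44.3 and 29.0 FPKM with staurosporine, against 41.8, 33.7 and 32.2 FPKM with DMSO, a log2 ratio of -1.48 in 0 Ca2+ medium. The other partner gene, mob-1 (NCU01605), stood at -0.41, -0.83 and -0.86, and at 0.03, 0.06 and -0.29 with equal FPKM sums.

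The casein kinases, constitutively active enzymes that in this fungus also phosphorylate the clock protein FREQUENCY, divided by type. Both casein kinase I genes were low in the drug library without calcium alone. In that order of media ck-1a (NCU00685) had 42.3, 208 and 186 FPKM with staurosporine, against 136, 135 and 158 FPKM with DMSO, and log2 ratios of -1.66, 0.62 and 0.23. For ck-1b (NCU04005) these were 32.7, 124 and 135 FPKM with staurosporine, against 102, 91.9 and 103 FPKM with DMSO, and -1.61, 0.43 and 0.38. In both genes the 0 Ca2+ drug library had the lowest of 6 values, and the DMSO libraries differed little between media. The 3 casein kinase II genes had deposited FPKM below DMSO in every medium, none by 2 times, and with equal FPKM sums their ratios all turned to between 0.02 and 0.52. The catalytic subunit gene cka (NCU03124) had 147, 141 and 160.4 FPKM with staurosporine, against 179, 222 and 208 FPKM with DMSO. The 3 drug libraries lay below the 3 DMSO libraries for cka, and the same was true of ckb-2 (NCU02754), with 79.2, 69.3 and 90.3 FPKM against 104, 127 and 132 FPKM, and of ckb-1 (NCU05485), with 48.2, 56.8 and 57.9 FPKM against 65.3, 74.3 and 70.7 FPKM. Neither subunit type passed the limma test over the media.

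**Figure D2:**
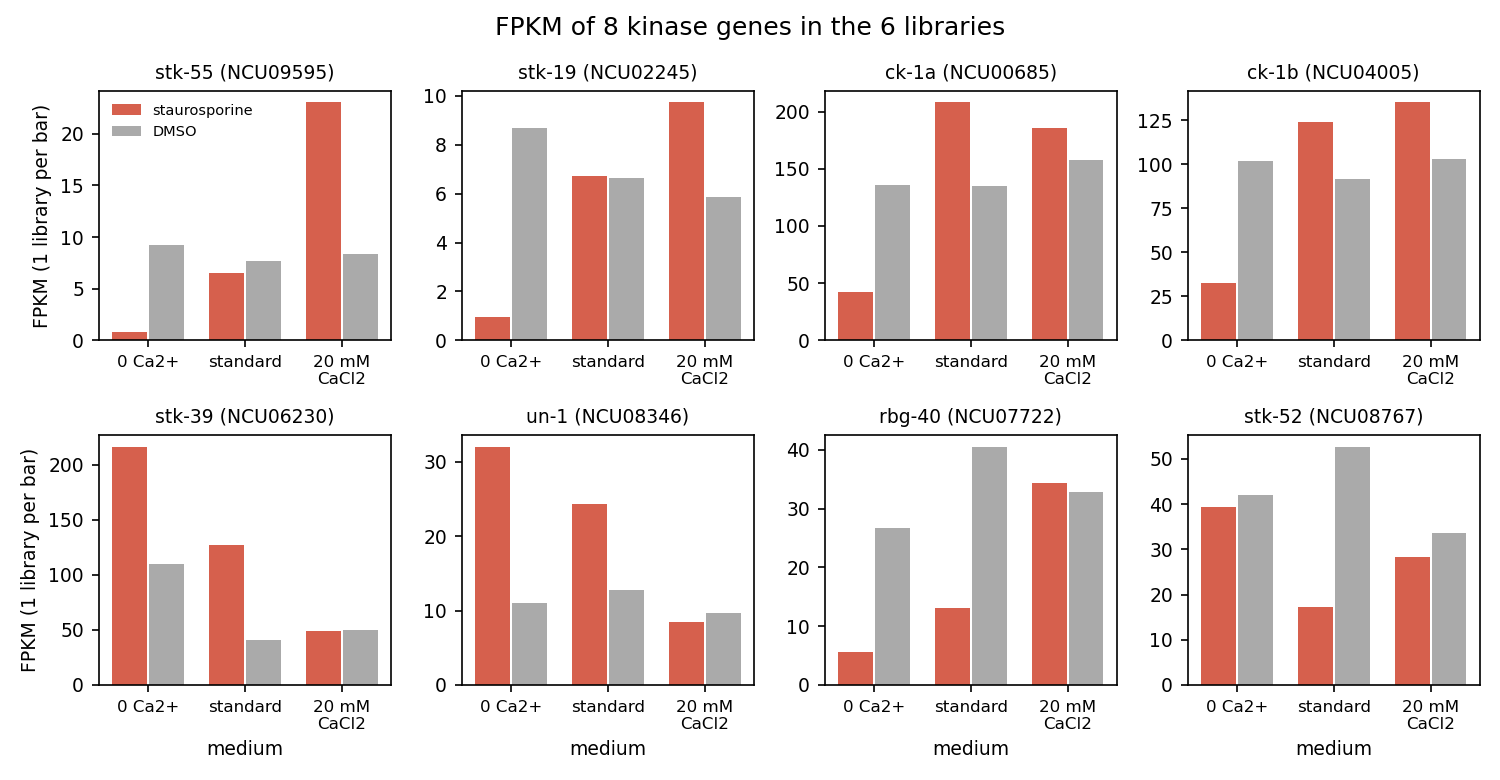
FPKM of 8 kinase genes in the 6 libraries, with staurosporine (red) left of DMSO (grey) in each medium; each bar is 1 library and has no error. The genes stk-55, stk-19, ck-1a and ck-1b have their lowest value in the 0 Ca2+ drug library, un-1 and stk-39 their highest, and rbg-40 and stk-52 differ in the 0 Ca2+ medium.

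The genes of cell cycle kinases were mixed. NCU08772 had 6.19, 6.63 and 8.28 FPKM with staurosporine in 0 Ca2+, standard and 20 mM CaCl2 medium, against 18.4, 14.4 and 12.1 FPKM with DMSO. All 3 drug libraries lay below all 3 DMSO libraries, with log2 ratios of -1.43, -1.01 and -0.50, which were -1.03, -0.19 and 0.03 with equal FPKM sums. The gene stk-1 (NCU01435, annotated as bur-1, in budding yeast a kinase of transcription elongation) had 4.91, 14.6 and 18.1 FPKM with staurosporine, against 13.4, 11.5 and 12.4 FPKM with DMSO. Its drug level was lowest without calcium and highest with 20 mM CaCl2, with log2 ratios of -1.29, 0.32 and 0.51. The cell division kinase gene div-4 (NCU04426) stood at -1.19 in 0 Ca2+ medium, with 6.08 FPKM against 15.1 FPKM. The NIMA-type mitotic kinase gene nim-1 (NCU03187) had 12.1 FPKM with staurosporine in standard medium, against 5.08 FPKM with DMSO, a log2 ratio of 1.11, and was within 0.05 of 0 in the other media. The polo kinase gene cdc5 (NCU09258) followed with 0.89 in standard medium. The subunit gene NCU02079, annotated as a regulatory part of a cyclin-dependent kinase, stood lowest in 20 mM CaCl2 medium, with 21.4 FPKM against 34.6 FPKM and a log2 ratio of -0.67.

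Among the checkpoint kinases, which halt the cell cycle after DNA damage, un-1 (NCU08346, also known as mus-58, the fungal CHK1) was the only kinase gene higher by at least 2 times in 0 Ca2+ medium. It had 32.0, 24.3 and 8.39 FPKM with staurosporine, against 11.0, 12.8 and 9.65 FPKM with DMSO. Its log2 ratios were 1.46, 0.88 and -0.18. In assembly NC12 this gene overlaps NCU08347, of unknown product, whose log2 ratios were 2.90, 3.22 and -0.05, with 14.7 and 16.4 FPKM in the drug libraries of 0 Ca2+ and standard medium, against 1.11 and 0.866 FPKM with DMSO. The strand setting of the counting is not given in the sources used here, so reads of these overlapping genes cannot be told apart. The same limit holds for all 17 of 79 kinase genes that overlap another gene. Among them are mcb, pkc, ck-1b, ckb-2, nim-1, stk-51, NCU08772 and rbg-40. The CHK2-type gene prd-4 (NCU02814), known also for its effect on the clock, had 23.2, 27.0 and 12.2 FPKM with staurosporine, against 18.3, 11.2 and 12.2 FPKM with DMSO. Its log2 ratio was 1.20 in standard medium, 0.33 in 0 Ca2+ medium and 0.00 in 20 mM CaCl2 medium. The second CHK2-type gene, mus-59 (NCU02751), stood at -0.54, 0.01 and -0.07.

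Of the 5 genes for kinases of nutrient and stress signalling, 1 passed 2 times upward, in standard medium, against 13.4% of all genes. Another passed it downward, in 0 Ca2+ medium, against 20.9% of all genes. With 5 genes these counts do not set the class apart. The gene stk-14 (NCU02202), annotated as the endoplasmic reticulum stress sensor kinase of the IRE1 type, had 10.4, 25.9 and 16.8 FPKM with staurosporine, against 10.8, 8.95 and 13.3 FPKM with DMSO. Its log2 ratio was 1.43 in standard medium and -0.05 and 0.31 in 0 Ca2+ and 20 mM CaCl2 medium. The gene prk-1 (NCU04185), annotated as glycogen synthase kinase 3, had 51.2, 79.0 and 62.7 FPKM with staurosporine, against 103, 116 and 99.5 FPKM with DMSO. All 3 drug libraries were below all 3 DMSO libraries, with log2 ratios of -1.0, -0.54 and -0.66, and with equal FPKM sums of -0.56, 0.36 and -0.08. As deposited, prk-1 and NCU08772 were the only kinase genes lower by at least 0.5 in every medium, and no kinase gene was higher by that much. How many of all genes did the same was not counted, so these counts cannot set kinase genes apart. The gene prk-10 (NCU04566), for the SNF1 kinase that acts when glucose is short, stayed between -0.28 and 0.55, and prk-2 (NCU07872), annotated as Yak1, was at 0.67, 0.80 and 0.04.

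The kinases RIO1 and RIO2 act in the maturation of the small ribosomal subunit in yeast and human cells, and their genes differed without calcium. The RIO2 gene rbg-40 (NCU07722) had 5.67, 13.1 and 34.3 FPKM with staurosporine in 0 Ca2+, standard and 20 mM CaCl2 medium, against 26.7, 40.5 and 32.9 FPKM with DMSO. As deposited, it was low in the drug libraries of 0 Ca2+ and standard medium, with log2 ratios of -2.05 and -1.56, and at 0.06 with 20 mM CaCl2. With equal FPKM sums these were -1.66, -0.70 and 0.64. In NC12 it overlaps NCU07723, annotated as norsolorinic acid reductase, whose log2 ratios were 4.37, 3.59 and 0.24, the opposite direction in the first 2 media. The RIO1 gene stk-52 (NCU08767) had 39.5, 17.3 and 28.3 FPKM with staurosporine, against 41.9, 52.6 and 33.6 FPKM with DMSO. As deposited, it was low in the standard medium drug library alone, with a log2 ratio of -1.55, and at -0.08 and -0.24 in 0 Ca2+ and 20 mM CaCl2 medium. With equal FPKM sums stk-52 was at -0.68 in standard medium and at 0.36 and 0.33 in the other media. Whether the RIO1 and RIO2 genes differ in their response to the medium was not tested.

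The lowest ratios belonged to 2 kinase genes with no assigned function in the tables. The gene stk-55 (NCU09595) had 0.834, 6.48 and 23.0 FPKM with staurosporine in 0 Ca2+, standard and 20 mM CaCl2 medium, against 9.27, 7.65 and 8.35 FPKM with DMSO. The drug libraries of 0 Ca2+ and 20 mM CaCl2 medium lay on opposite sides of the DMSO libraries, which were close to each other. Its log2 ratios were -2.49, -0.21 and 1.36. As deposited, it was the only one of the 78 kinase genes to pass 2 times in opposite directions, against 2.98% of all 7415 genes. With equal FPKM sums ck-1a, ck-1b, stk-19 and stk-11 did so too. For ck-1a the ratios were then -1.22 in 0 Ca2+ and 1.53 in standard medium. How many of all genes did so on that scale was not counted. The gene stk-19 (NCU02245) had 0.938, 6.73 and 9.74 FPKM with staurosporine, against 8.71, 6.66 and 5.88 FPKM with DMSO, and log2 ratios of -2.32, 0.01 and 0.64. The same order of media was seen in further kinase genes. Among them were stk-11 (NCU03197, annotated as psk1), at -1.40, 0.07 and 0.65, and stk-46 (NCU06638), at -1.32, -0.02 and 0.49. Genes with this whole order were not counted. The 0 Ca2+ ratio was the lowest in 49 of 78 kinase genes, against 41.4% of all genes. With the trend on gene length removed, it was the lowest in 35.9% of the kinase genes, against 44.3% of all genes.

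The highest ratio in standard medium was that of stk-39 (NCU06230), annotated only as a serine/threonine protein kinase. It had 216, 128 and 49.1 FPKM with staurosporine, against 110.1, 41.1 and 50.1 FPKM with DMSO. The drug libraries of 0 Ca2+ and standard medium were above their DMSO libraries, and those of 20 mM CaCl2 medium were equal to within 1 FPKM. The log2 ratios were 0.97, 1.61 and -0.03. The meiotic-type kinase gene prk-8 (NCU01498, also known as ime-2) had 35.1, 75.7 and 58.3 FPKM with staurosporine, against 49.6, 28.2 and 37.0 FPKM with DMSO, and log2 ratios of -0.49, 1.39 and 0.64. The gene stk-28 (NCU04279) had 37.6 FPKM with staurosporine in standard medium, against 15.7 FPKM with DMSO, a log2 ratio of 1.20, and stood at -0.32 and 0.23 in 0 Ca2+ and 20 mM CaCl2 medium. The gene stk-26 (NCU04143) stood at 0.87 in 0 Ca2+, 0.88 in standard and -0.24 in 20 mM CaCl2 medium. In 20 mM CaCl2 medium the lower end was held by pkac-2, mob-1, prk-3 (NCU03659, -0.74) and NCU02079, and the upper end by stk-55, stk-12 (NCU07378, 0.68), stk-11 and stk-19.

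**Figure D3:**
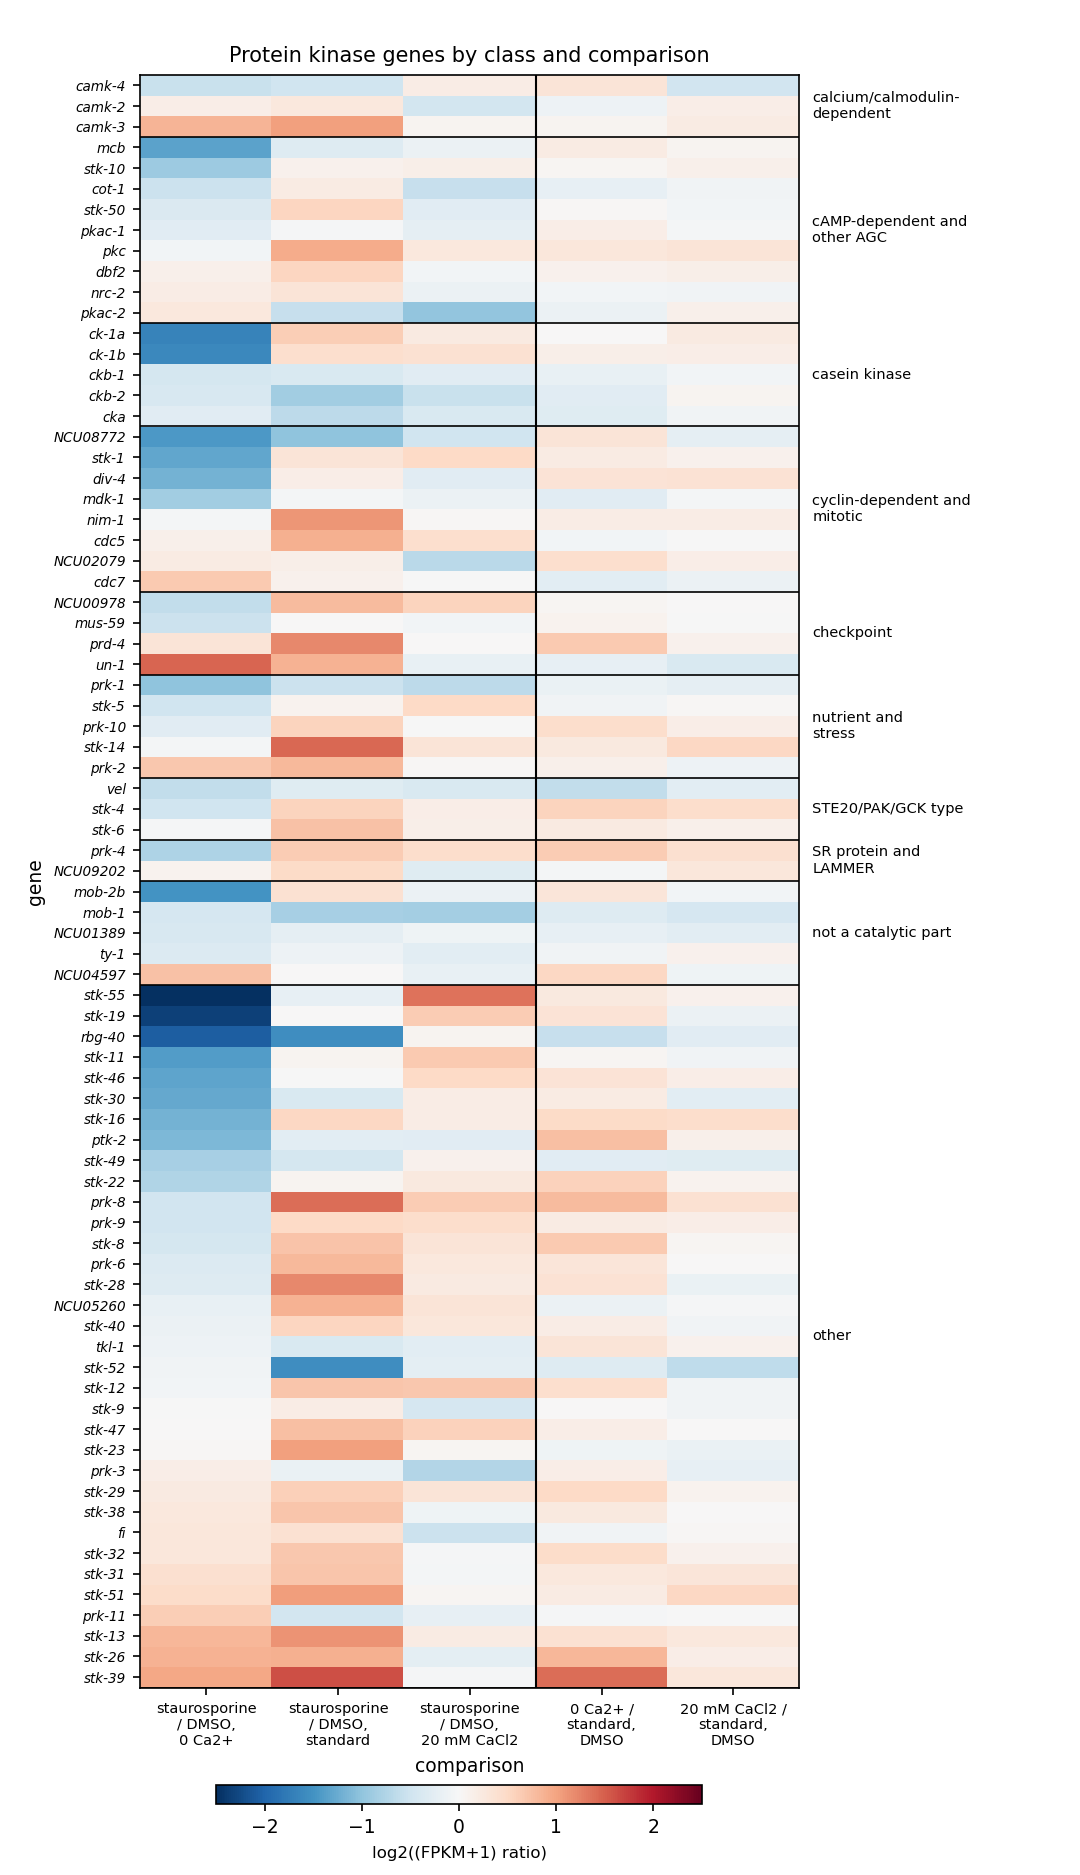
Log2((FPKM+1) ratio) of the 78 kinase genes (rows, grouped by class and ordered within it by the 0 Ca2+ value) in 5 comparisons (columns; red higher, blue lower than the reference named after the slash). Each cell rests on 2 single libraries; blue cells gather in the 0 Ca2+ staurosporine column, where 16 genes are lower by at least 2 times, and the 2 columns of media with DMSO are pale, with stk-39 as the 1 gene past 2 times.

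The order of the 3 ratios by medium was compared with that of all genes. The 0 Ca2+ ratio was the lowest of the 3 in 49 of 78 kinase genes (62.8%), against 41.4% of all genes. The standard ratio was the highest in 50 of 78 (64.1%), against 35.8% of all genes. With the trend on gene length removed, these shares were 35.9% of the kinase genes against 44.3% of all genes, and 48.7% against 39.9%. With each medium's ratios centred on their median, the standard ratio was the highest in 31 of 78, against 25.1% of all genes. A ratio above 0 in all 3 media was seen in 9 kinase genes, against 13.6% of all genes, and one below 0 in all 3 media in 15, against 23% of all genes. Of the 16 kinase genes lower by at least 2 times in 0 Ca2+ medium, 8 had a ratio above 0 in standard medium, against 23.6% of the 1576 genes that passed downward there, and 10 had one above 0 in 20 mM CaCl2 medium, against 48.9%. The 3 staurosporine ratios share no library with each other. Across the 78 kinase genes the 0 Ca2+ and 20 mM CaCl2 ratios correlated at r = -0.329 (Spearman's rho -0.256), against -0.0679 over all genes. The standard ratios correlated with those of 0 Ca2+ medium at r = 0.424, against 0.543 over all genes, and with those of 20 mM CaCl2 medium at 0.393, against 0.379. These are descriptions across genes, which share their libraries and any bias with gene length and are not replicates.

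Gene length, which the rule did not use, moved with these ratios. The kinase genes had a median length of 3714 bp (quartiles 2742 and 4542), against 2386 bp for the genes with a length in NC12, and a median level of 17.4 FPKM, against 15.6 FPKM for all genes. Of the 78, 46 fell into the longest 25% of genes. Over all genes, the median log2 ratio of the longest 25% was -0.35, 0.39 and 0.12 in 0 Ca2+, standard and 20 mM CaCl2 medium, against 0.29, -0.18 and -0.39 for the shortest 25%. The 46 long kinase genes had medians of -0.28, 0.54 and 0.14. With the trend on length removed by a smooth curve, a choice made after the data were seen, the kinase medians were -0.15, 0.25 and -0.14, against -0.12, 0.12 and -0.15 for all genes. The 0 Ca2+ ratio was the lowest in 76.1% of the 46 long kinase genes, against 65.0% of all long genes, and in 43.8% of the 32 shorter ones, against 34.3% of all shorter genes. Of the 170 ratios of the 34 named genes, 162 stayed on their side of 2 times without the trend, 5 no longer passed it and 3 newly passed it. Those that no longer passed were prk-1 (-0.60), ptk-2 (NCU01940, -0.88) and stk-16 (NCU00914, -0.84) in 0 Ca2+ medium and camk-3 (0.93) and stk-51 (NCU08177, 0.83) in standard medium. Those that newly passed were stk-39 (1.15) and stk-26 (1.04) in 0 Ca2+ medium and pkac-2 (-1.11) in 20 mM CaCl2 medium.

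**Figure D4:**
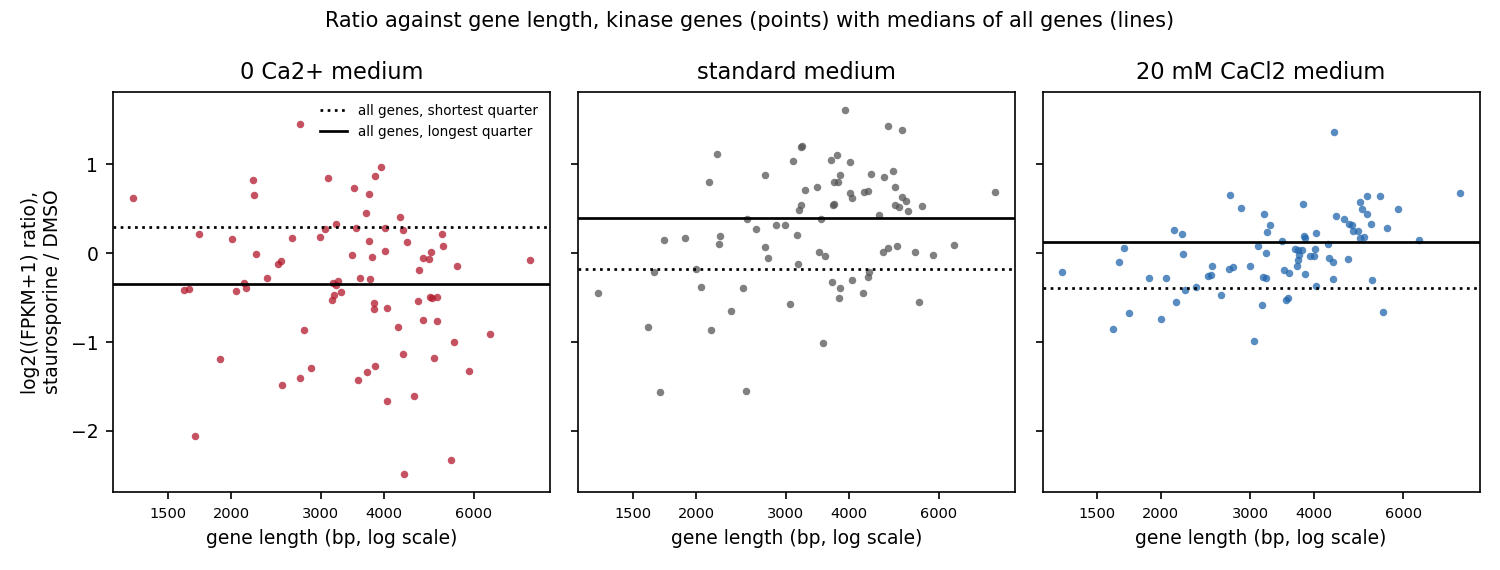
Log2((FPKM+1) ratio) of staurosporine over DMSO against gene length in base pairs (log axis) for the 78 kinase genes (points), in each medium. The lines give the median of all genes in the shortest 25% (dotted) and the longest 25% (solid), -0.18 and 0.39 in standard medium; the lines swap places in 0 Ca2+ medium, at 0.29 and -0.35.

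Without the drug, most kinase transcripts had similar levels in the 3 media. In 0 Ca2+ medium with DMSO 1 kinase gene passed 2 times upward and 0 downward relative to standard medium, against 2.99% and 2.33% of 7079 genes. The medians were 0.17 for the kinase genes and 0.12 for all genes, and 53 of 78 had a ratio above 0, against 64.2% of all genes. That gene was stk-39, with 110.1 FPKM in 0 Ca2+ medium against 41.1 FPKM in standard medium, a log2 ratio of 1.40. It is the only kinase gene the authors' deposited table calls in this comparison, against 2.01% of the genes they tested called higher and 1.94% called lower. Next came stk-26, with 14.8 FPKM against 7.89 FPKM (0.83), prk-8, with 49.6 FPKM against 28.2 FPKM (0.79), and ptk-2 (NCU01940), with 50.2 FPKM against 29.4 FPKM (0.75). The lowest were vel (NCU00406), a PAK-type kinase gene annotated as CHM1, with 44.1 FPKM against 68.5 FPKM (-0.62), rbg-40 (-0.58), mob-1 (-0.33) and stk-52 (-0.32). In 20 mM CaCl2 medium with DMSO 0 kinase genes passed 2 times in either direction, against 2.12% higher and 0.801% lower of 7112 genes, 44 of 78 had a ratio above 0, against 60.2% of all genes, and the authors' deposited table called 0 of 78, against 1.25% and 0.503%. The ratios ran from -0.63 for stk-52 to 0.52 for stk-14, with stk-51 (NCU08177, 0.51), stk-4 (NCU03894, of the STE20 type, 0.44) and stk-16 (NCU00914, 0.43) at the upper end and camk-4 (-0.48), mob-1 (-0.43) and un-1 (-0.37) at the lower. These 2 comparisons share the standard DMSO library, which also serves as reference for staurosporine in standard medium, so a high or low value in it moves all 3.

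The other genes of protein phosphorylation were described by lists. Over the 3 media 0 of 9 MAP cascade genes, 0 of 7 cyclins and 0 of 34 protein phosphatase genes that passed the level filter passed the limma test, and 0, 2 and 2 had an unadjusted p below 0.05, against 14.1% of all genes. The 9 MAP cascade genes had medians of -0.42, -0.27 and -0.27 with staurosporine in 0 Ca2+, standard and 20 mM CaCl2 medium. Past 2 times with the drug were os-2, the MAP kinase of osmotic stress, in standard medium, with 54.3 FPKM against 116 FPKM, and mak-2, the MAP kinase of cell fusion, in 20 mM CaCl2 medium, with 129 FPKM against 262 FPKM. Of the phosphatase genes, 2 passed 2 times upward and 7 downward in 0 Ca2+ medium, against 18.7% and 20.9% of all genes. In standard medium these were 3 and 1, against 13.4% and 14.9%, and in 20 mM CaCl2 medium 1 and 2, against 2.62% and 6.16%. Their medians were -0.22, 0.06 and -0.24. The phosphatase gene NCU07590, named here after its values were seen, had 26.3 and 51.3 FPKM with staurosporine in 0 Ca2+ and standard medium, against 8.02 and 7.87 FPKM with DMSO. The gene NCU03804, annotated as phosphatase 2B, which is the calcium-dependent phosphatase calcineurin, was named in the same way. It had 31.4 FPKM with staurosporine in 0 Ca2+ medium, against 78.8 FPKM with DMSO, a log2 ratio of -1.30. Of the 7 cyclins, 0 were higher and 2 lower in 0 Ca2+ medium and 1 higher and 2 lower in standard medium, against the same shares of all genes, while 0 passed 2 times in 20 mM CaCl2 medium. The C-type cyclin gene NCU04495 was low with the drug in 2 media, with 4.59 FPKM against 17.6 FPKM in 0 Ca2+ medium and 7.41 FPKM against 18.2 FPKM in standard medium.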

How the data were processed

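The labels describe poly(A) RNA read from 1 end over 50 bp. The submitters' processing notes name TopHat2 2.0.4, Cufflinks 2.0.2 and Cuffdiff. Their build, annotation and strand setting (not given in the sources used here) could not be stated. Deposited by the authors were 5 tables of 9691 genes, 1 for each comparison of 2 libraries, which hold, per the file headers, FPKM, a log2 ratio, p and q values and a call of significance. Decimal commas were replaced. A library in more than 1 table had identical FPKM, with 0 of 9691 genes differing. One column is named for the standard medium alone and was assigned with its table's name. FPKM is relative to its library, depth is unknown and no counting interval is given.

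Log2 ratios used a pseudocount of 1 and were kept where the FPKM of both libraries averaged at least 1. Within a medium there is no test. The 3 staurosporine ratios of 7415 genes entered a moderated two-sided test with mean trend (limma 3.58.1, R 4.3.3), with Benjamini-Hochberg adjustment over all of them, an adjusted p below 0.05 and a mean change of at least 2 times; SE is limma's moderated standard error. Its p-values measure only the spread of single libraries across media. The script was tested on simulated data. Of the 79 genes, 79 matched NC12 of RefSeq by locus tag and 72 had a symbol other than their locus; gene lengths, symbols and overlaps come from it, and 17 of 79 overlap another gene. Smoothing used lowess (statsmodels 0.14.6, span 0.3). Further tools were matplotlib 3.10.9, scipy 1.17.1 (rank correlations), numpy 2.4.6 and pandas 2.3.3 under Python 3.11.15.

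Kinase genes and lists were chosen with earlier results of these data known, and classes were assigned by product text, symbol or known identity. Named genes comprise, per comparison, the top 4 and bottom 4 ratios, and further the 6 most abundant, those past 2 times in opposite directions, those at least 0.5 on 1 side in all media, and all calcium/calmodulin, cAMP-dependent, protein kinase C and casein kinase genes. Other genes named to show a class, a partner, an overlap or a pathway list were chosen after their values were seen.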

Additional observations from a re-analysis of the deposited data

Results flagged for a closer look

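The kinase gene stk-55 (NCU09595) is flagged because its single ratios in 2 media, as deposited, point in opposite directions past 2 times. With equal FPKM sums other named kinase genes did the same. Its log2 ratio with staurosporine was 1.36 in 20 mM CaCl2 medium and -2.49 in 0 Ca2+ medium. The difference rests on 4 libraries without replicates and was not tested.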

How the results depend on the processing

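The labels carry no replicate numbers, so no replicate block could be fitted; the test over the media pairs libraries by medium, and without that pairing it again passed 0 kinase genes. Over the media the count of kinase genes was 0 under every alternative run except leaving out the 20 mM CaCl2 pair, where it was 1; over the 3 pairs left out in turn it ranged from 0 to 1. Kinase genes higher by at least 2 times in standard medium numbered 4 with a pseudocount of 5 and 46 with equal FPKM sums (6.93% and 46.8% of all genes), and those lower numbered 0 with equal sums (4.91%). In 0 Ca2+ medium those higher numbered 5 with ratios centred on their median, 9 with equal sums and 3 with the length trend removed (23.4%, 28.7% and 15.6% of all genes), and those lower 8 with equal sums (13.5%). In 20 mM CaCl2 medium those higher numbered 11 with equal sums (12.8%), and those lower 1 with a pseudocount of 0.1 and 1 with the length trend removed (8.22% and 4.69%). The cause of these shifts was not tested, apart from the scaling, which moves all genes. No ratio of a named gene past 2 times changed sign, while of all 102 staurosporine ratios of named genes 36 did with equal sums, 11 without the length trend and 8 when centred. Counts in the 2 media comparisons with DMSO stayed within 1.5 times. The catalytic genes alone and the length trend were added after the data were seen. Depth is unknown, so low values such as those of stk-55 and stk-19 in the 0 Ca2+ drug library have no known counting error.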
